A study of Homo sapiens with 9 samples.

Results

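The genes described here encode the structural proteins of the extracellular matrix, in the HCC (hepatocellular carcinoma) cell line MHCC97L and in its drug-resistant lines MHCC97L-Src and MHCC97L-Oxa. They were set by a rule on gene names, chosen with earlier results of these data known. The rule took all collagen chain genes, all laminin chain genes, and FN1, SPARC, THBS1, THBS2, TNC, FBN1, FBN2, NID1, NID2, BGN, DCN, VCAN, HSPG2, AGRN and POSTN. This gave 71 of the 20030 genes in the count table, of which 44 were collagen genes, 12 were laminin genes and 15 were the others. MHCC97L was the untreated wild-type line, MHCC97L-Src was its line with stable resistance to the Src kinase inhibitor saracatinib at 4 μmol/L, and MHCC97L-Oxa was its line with stable resistance to the platinum drug oxaliplatin at 2 μmol/L. Each line was sequenced in 3 libraries, 9 in all. The labels do not say whether the drug was present at harvest, whether a resistant line was 1 clone, or whether the libraries of a line came from separate cultures. The study's text speaks of independent experiments for MHCC97L and MHCC97L-Src and says in general that experiments were repeated. How the libraries of MHCC97L-Oxa were replicated is not stated, so the p-values below measure the spread between libraries, which may be technical there.

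Collagens are trimers of alpha chains, and a cell can secrete a given type only when it makes a fitting set of chains. Laminins are likewise assembled from an alpha, a beta and a gamma chain, and together with type IV collagen, nidogens and heparan sulfate proteoglycans they form the basement membrane on which epithelial cells, and tumor cells of epithelial origin, rest. Fibronectin, fibrillins, tenascin and thrombospondin belong to the interstitial matrix that cells grip through integrins, and this matrix is known to be remodeled in fibrotic liver and in HCC.

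The count table held 16970486 to 18209213 counts per library, so counts of the same gene can be set side by side, and 3 counts (0.165 to 0.177 CPM, counts scaled to the library total) were taken as the smallest detectable amount. This limit covers counting error only. Of 12 hepatocyte markers, 8 stayed at or under 3 counts in every library, with ALB, AFP, APOB, TTR and FGA among those at 0 in all 9, and the summed level of the 12 was 0.227 to 2.14 CPM. The keratins KRT8 and KRT18, typical of simple epithelia, were high in every library (22160 to 69315 counts), whereas EPCAM reached at most 2 counts and CDH1, E-cadherin, had 15 to 19 counts in MHCC97L and 2 to 5 in the resistant lines. The 8 fibroblast and stellate cell markers summed to 321 to 377 CPM in MHCC97L-Src, 411 to 444 CPM in MHCC97L-Oxa and 426 to 656 CPM in the wild-type line, with THY1 carrying most of the sum while PDGFRA and DPT stayed at or under 3 counts and LRAT at 0. MHCC97L replicate 1 stood apart from the other libraries: across genes, its deviation from the mean of the 9 libraries followed GC content with a Spearman's rho of -0.789, against -0.258 in MHCC97L replicate 3 and 0.169 to 0.704 in the other 7.

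The lines transcribed a selective part of the matrix repertoire. Of the 71 genes, 44 had at least 10 counts in every library of at least 1 line, 8 had no count in any library, 8 more never exceeded 3 counts, and 11 lay between. The genes together took 0.607% ± 0.0320 of all counts in MHCC97L-Src, 0.728% ± 0.0438 in the wild-type line and 0.930% ± 0.0362 in MHCC97L-Oxa (SD, n = 3 each), and the ranges of the lines did not overlap. Genes with many counts weigh most in these shares, and they did not all move alike. In MHCC97L-Src and MHCC97L-Oxa, COL5A1 had means of 418 and 1408 CPM, and SPARC had 987 and 769 CPM. Levels are compared between genes only as FPKM, the deposited fragment count per length of transcript and library size. The 15 genes with the highest mean FPKM over the 9 libraries were, in descending order, SPARC, LAMB3, COL5A1, COL5A2, COL4A2, LAMB2, AGRN, LAMA5, COL7A1, FN1, LAMC1, HSPG2, COL4A6, COL4A5 and LAMC3. They ran from 142 FPKM for SPARC, a collagen-binding matricellular protein, to 13.4 FPKM for LAMC3. From LAMB3 to the next gene in the order, COL5A1, the means were 71.0 and 64.8 FPKM, and in MHCC97L (70 and 68 FPKM) the gene means differed by less than the spread between libraries, so neighbors in this list should be read as close. The deposited FPKM was lower than counts per length of the annotated transcript for some genes more than for others, at 0.418 times that value for FN1 and 0.323 times for COL4A1 against 0.761 times for LAMB3, so FN1 ranked 10 by FPKM and 7 by counts per length.

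**Figure D1:**
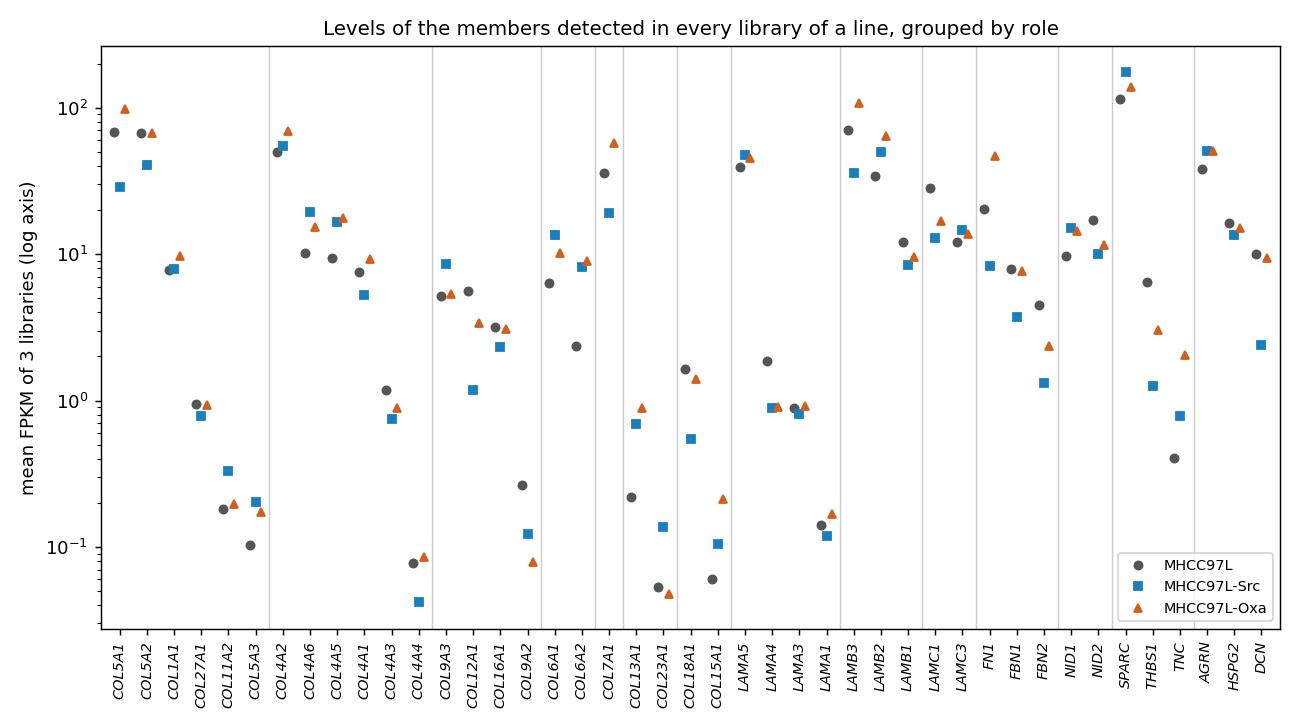
Mean FPKM of 3 libraries per line (log axis) for 43 of the 44 genes with at least 10 counts in every library of a line, grouped by role and separated by vertical lines; circles are MHCC97L, squares MHCC97L-Src and triangles MHCC97L-Oxa. SPARC was the highest in the 9-library mean at 142 FPKM, and the triangles lie well above the squares for COL5A1, COL7A1, LAMB3 and FN1.

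For several collagens, some or all chains were near or below the detection limit. COL1A1, the major chain of type I collagen, had 1022 to 1491 counts per library (7.81 ± 0.39 FPKM in the wild-type line, 7.96 ± 0.39 in MHCC97L-Src and 9.70 ± 0.65 in MHCC97L-Oxa, SD, n = 3), while its partner COL1A2 had 2 counts in MHCC97L replicate 1 and 0 in the other 8 libraries. COL3A1, the chain of type III collagen, had 1 to 9 counts. Of the type VI collagen chains, COL6A1 and COL6A2 were present in all libraries, whereas COL6A3 had 1 count in a MHCC97L library and 0 elsewhere, and COL6A5 and COL6A6 had 0 throughout. The type V collagen chains COL5A1 and COL5A2, which co-assemble and set fibril diameter, were both abundant, and COL5A3 was not (17 to 50 counts).

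All 6 type IV collagen genes, which lie as head-to-head pairs sharing the stretch between their start sites, were above the detection limit, but at unequal levels. COL4A2 had 49.96 ± 12 FPKM in the wild-type line, 54.4 ± 3.8 in MHCC97L-Src and 69.3 ± 1.3 in MHCC97L-Oxa (SD, n = 3), while its pair partner COL4A1 had 7.60 ± 0.74, 5.29 ± 1.6 and 9.24 ± 0.75 FPKM. The size of this gap depends on the unit. The 9-library means were 57.9 FPKM for COL4A2 and 7.38 for COL4A1. By CPM per kilobase of annotated transcript they were 80.4 and 22.8, a smaller gap. COL4A5 and COL4A6, the pair on chromosome X, were at 9.40 to 19.3 FPKM in the line means, and COL4A3 and COL4A4, the pair on chromosome 2, at 0.0420 to 1.17 FPKM. Among the laminin chains, LAMA5, LAMB1, LAMB2 and LAMC1, whose products can build the laminins of most mature epithelial and vascular basement membranes, were all well detected. LAMB3, by contrast, is known to assemble with the alpha chain of LAMA3. LAMB3 stood at 70.4 ± 13, 35.7 ± 3.2 and 107 ± 6.5 FPKM in MHCC97L, MHCC97L-Src and MHCC97L-Oxa, whereas LAMA3 had 0.890 ± 0.46, 0.805 ± 0.027 and 0.915 ± 0.17 FPKM (SD, n = 3 each). POSTN and THBS2, matricellular genes of activated stroma, had no count in any library.

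The resistant lines were compared directly on their 6 libraries. Of 43 genes tested between MHCC97L-Src and MHCC97L-Oxa, 16 had an adjusted p under 0.05 by edgeR's quasi-likelihood test with Benjamini-Hochberg adjustment over all 11994 tested genes, where 4.64% of all tested genes did. Of the 16, 13 were lower in MHCC97L-Src (2.52% of all tested genes) and 3 were higher (2.12% of all). The median log2 fold change was -0.24 for the 43 genes and -0.02 for all tested genes. In 27 of the 43 genes the libraries of the lines did not overlap, against 26.7% of all tested genes, with 21 lower (12.7% of all) and 6 higher (13.9% of all) in MHCC97L-Src. By a rule without adjustment, an unadjusted p under 0.05 with a change of over 1 on the log2 scale, 13 of the 43 differed, against 4.01% of all tested genes. The 13 came from 9 of the 14 roles with a tested gene, namely fibronectin and both fibrillins, fibrillar, basement membrane, anchoring fibril, fibril-associated and endostatin-bearing collagens, a laminin chain, a proteoglycan and the matricellular proteins THBS1 and TNC. None of the tested transmembrane or beaded filament collagens, laminin alpha or gamma chains or nidogens was among the 13 lower genes. With all 9 libraries in one fit, 4 of the 16 kept the call, all lower in MHCC97L-Src (0.482% of all tested genes), and the adjusted p of the other 12 was 0.11 to 0.86.

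Fibronectin showed the greatest difference. FN1, on chromosome 2 from 215360440 to 215436172 on the minus strand (GRCh38, GENCODE release 29), had 2976, 2629 and 2872 counts in MHCC97L-Src, 15711, 18094 and 14849 in MHCC97L-Oxa and 8991, 5894 and 6152 in MHCC97L. MHCC97L lay between the resistant lines without overlap. The log2 fold change of MHCC97L-Src over MHCC97L-Oxa was -2.41 (standard error 0.11, edgeR adjusted p = 4.8e-06), a 5.32-fold lower level.

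COL5A1, COL7A1 and LAMB3 shared the order of FN1, with MHCC97L-Src lowest, MHCC97L between and MHCC97L-Oxa highest, and with no overlap between any lines. COL5A1, chromosome 9 from 134641774 to 134844843 on the plus strand, had 7383, 7538 and 6755 counts in MHCC97L-Src, 24602, 25548 and 25699 in MHCC97L-Oxa and 14017, 19770 and 19646 in MHCC97L. It was 3.23-fold lower in MHCC97L-Src than in MHCC97L-Oxa (log2 fold change -1.69, standard error 0.12, edgeR adjusted p = 5.6e-05). COL7A1, chromosome 3 from 48564073 to 48595267 on the minus strand, encodes the collagen of the anchoring fibrils that tie a basement membrane to the tissue below. It had 4596, 4730 and 4538 counts in MHCC97L-Src, 13782, 15048 and 14931 in MHCC97L-Oxa and 9554, 9506 and 10304 in MHCC97L, and was 2.92-fold lower in MHCC97L-Src than in MHCC97L-Oxa (log2 fold change -1.55, standard error 0.11, edgeR adjusted p = 5.9e-05). LAMB3, chromosome 1 from 209614870 to 209652466 on the minus strand, had 3196, 3574 and 3203 counts in MHCC97L-Src, 9863, 10780 and 10169 in MHCC97L-Oxa and 5158, 7277 and 7345 in MHCC97L. It was 2.85-fold lower in MHCC97L-Src than in MHCC97L-Oxa (log2 fold change -1.51, standard error 0.12, edgeR adjusted p = 1.1e-04). FN1, COL5A1, COL7A1 and LAMB3 were the genes that kept an adjusted p under 0.05 in this comparison in all 11 other tests and normalizations tried and without each of the 6 libraries in turn.

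The sequences before the start sites of these 4 genes are shown because their transcripts differed most firmly between the resistant lines. Each is the 250 bases before the most upstream start site that RefSeq lists (GRCh38.p14), 5′ to 3′ on the gene's strand, at chr2:215436069-215436318 (minus strand), chr9:134641553-134641802 (plus strand), chr3:48595330-48595579 (minus strand) and chr1:209652426-209652675 (minus strand). Capitals mark, on either strand, the letters of a cyclic AMP response element (CRE, TGACGTCA), an AP-1 site (TGANTCA), a box named for its letters CCAAT, the Sp1-type box (GGGCGG, called the GC box), the TATA-type box (TATAA) or the binding motif of TEAD factors (GGAATG), where adjacent or overlapping motifs run together.
FN1: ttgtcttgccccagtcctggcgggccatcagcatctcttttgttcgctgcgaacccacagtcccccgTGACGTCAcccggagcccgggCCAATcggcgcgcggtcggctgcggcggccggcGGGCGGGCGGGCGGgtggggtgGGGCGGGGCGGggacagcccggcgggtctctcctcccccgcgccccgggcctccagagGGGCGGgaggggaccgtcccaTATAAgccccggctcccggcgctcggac
COL5A1: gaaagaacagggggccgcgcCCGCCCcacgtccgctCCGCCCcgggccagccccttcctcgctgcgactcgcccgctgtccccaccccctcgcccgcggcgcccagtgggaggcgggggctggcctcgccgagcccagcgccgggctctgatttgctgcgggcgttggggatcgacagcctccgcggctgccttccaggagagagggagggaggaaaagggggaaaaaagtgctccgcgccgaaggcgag
COL7A1: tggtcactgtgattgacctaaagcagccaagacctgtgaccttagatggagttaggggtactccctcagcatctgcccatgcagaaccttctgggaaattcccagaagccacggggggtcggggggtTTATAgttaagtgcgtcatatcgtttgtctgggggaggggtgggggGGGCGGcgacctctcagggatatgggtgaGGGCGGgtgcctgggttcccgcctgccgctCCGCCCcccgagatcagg
LAMB3: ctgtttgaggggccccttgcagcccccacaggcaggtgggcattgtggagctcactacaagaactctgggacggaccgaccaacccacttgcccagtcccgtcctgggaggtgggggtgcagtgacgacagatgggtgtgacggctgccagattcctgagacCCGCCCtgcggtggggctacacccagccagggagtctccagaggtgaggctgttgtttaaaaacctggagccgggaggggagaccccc
GC boxes were the letters that all 4 held, with 6 in FN1, 2 in COL5A1, 3 in COL7A1 and 1 in LAMB3. FN1 alone among the 4 held a CRE. The letters of the TATA box stood on the gene's strand near the start site in FN1. In COL7A1 they stood on the other strand (TTATA) and farther from the start. These are matches of letters only, and whether any of them acts was not tested. Of the 17 genes that differed in any comparison, 14 had an entry in the promoter table, and 12 of these held a GC box, 4 a CCAAT box, 4 a TATA box, 4 a TEAD site, 1 a CRE and 0 an AP-1 site. Among windows of the same length of 27305 genes the shares were 42.2% for the GC box, 33.0% for the CCAAT box, 19.7% for the TATA box, 11.95% for the TEAD site, 1.75% for the CRE and 6.57% for the AP-1 site. GC boxes are made of bases that are common in GC-rich windows, and the 14 windows were 54.8% to 88.4% G and C.

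**Figure D2:**
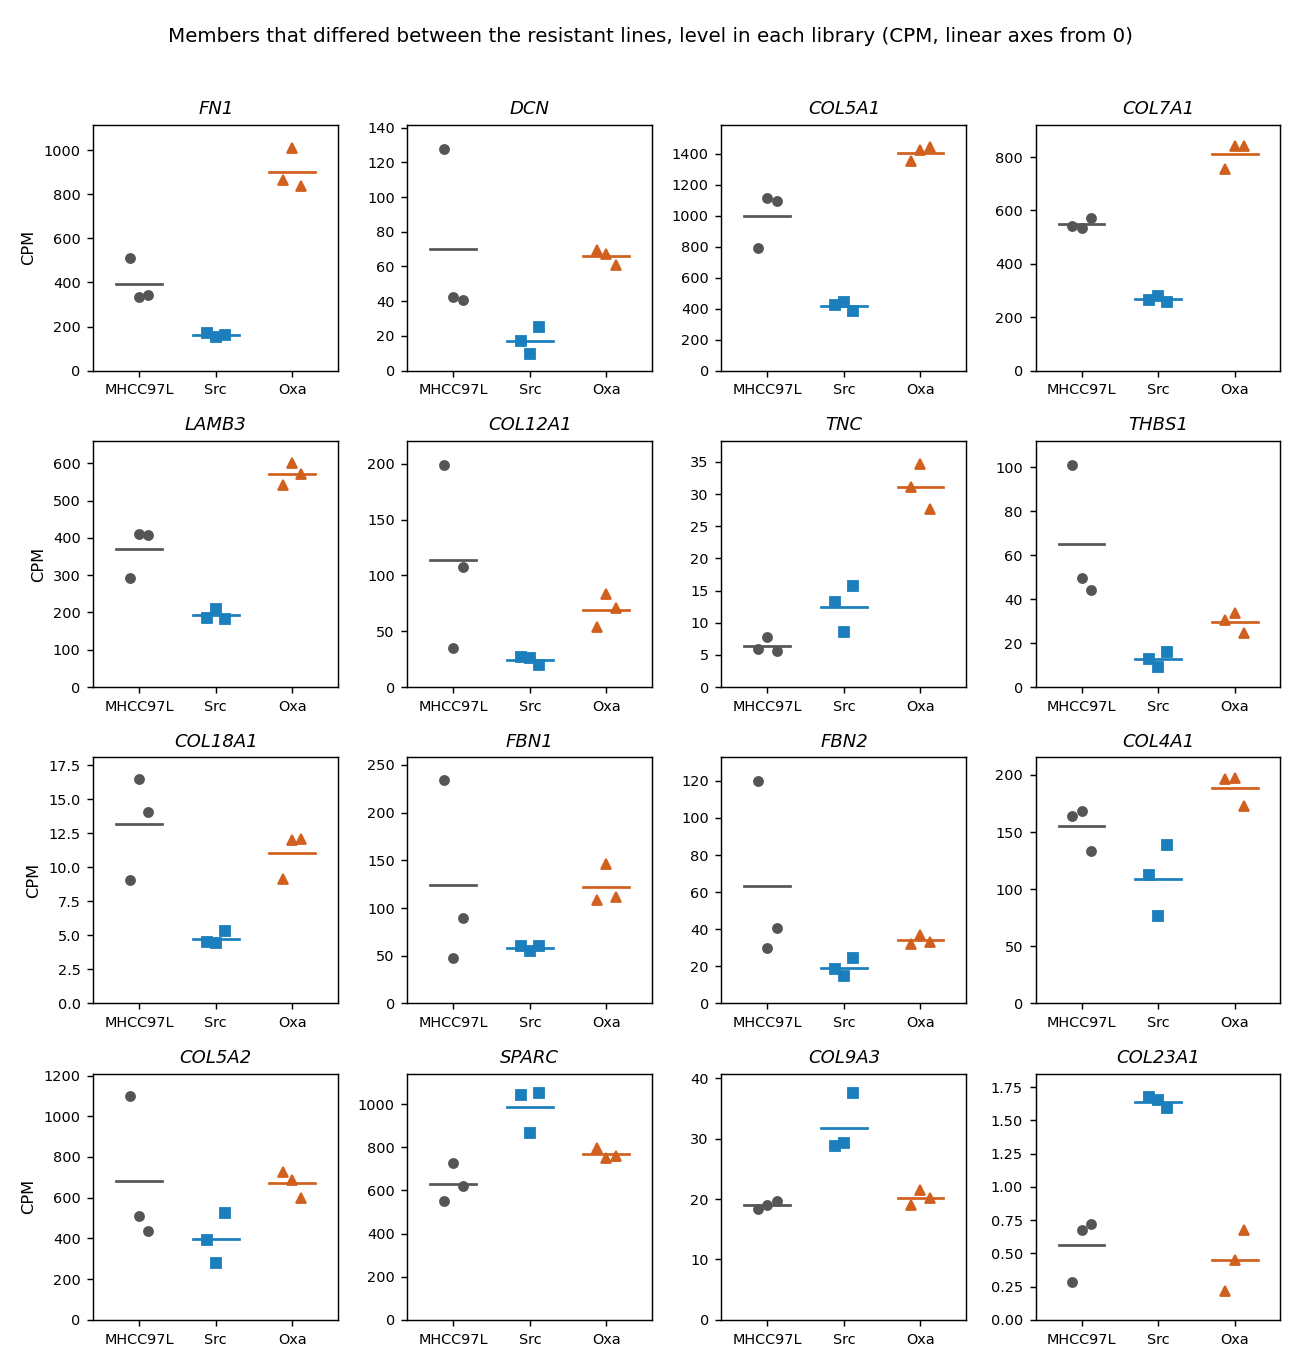
CPM in each library (points, linear axes from 0) and the mean of 3 libraries (bars) for the 16 genes that differed between the resistant lines, with MHCC97L as circles, MHCC97L-Src as squares and MHCC97L-Oxa as triangles. Squares lie below triangles in 13 panels and above them in the panels of SPARC, COL9A3 and COL23A1, and MHCC97L replicate 1 lies far above the other MHCC97L libraries in those of DCN, COL12A1, FBN1 and FBN2.

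DCN and COL12A1, whose products associate with collagen fibrils, and the fibrillin genes were lower in MHCC97L-Src as well. DCN, decorin, a small proteoglycan that binds collagen fibrils, had 295, 163 and 446 counts in MHCC97L-Src against 1262, 1202 and 1082 in MHCC97L-Oxa (log2 fold change -1.89, standard error 0.26, edgeR adjusted p = 0.0029). In MHCC97L its counts were 2256, 755 and 729, a spread that covered MHCC97L-Oxa. COL12A1, a collagen that decorates fibrils, had 468, 448 and 345 counts in MHCC97L-Src against 973, 1496 and 1253 in MHCC97L-Oxa (log2 fold change -1.44, standard error 0.20, edgeR adjusted p = 0.0035).

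FBN1 and FBN2 encode the fibrillins, the core of extracellular microfibrils. FBN1 had 1039, 935 and 1065 counts in MHCC97L-Src against 1975, 2614 and 1987 in MHCC97L-Oxa (log2 fold change -1.005, standard error 0.13, edgeR adjusted p = 0.0024). FBN2 had 318, 248 and 432 against 583, 665 and 593 counts (log2 fold change -0.79, standard error 0.18, edgeR adjusted p = 0.035). In MHCC97L both were far higher in replicate 1 (4132 and 2116 counts) than in the other libraries (855 to 1615 and 529 to 731 counts), so where the wild-type line stands for them depends on that library.

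Among the matricellular genes, which modulate adhesion rather than build fibers, TNC and THBS1 were lower and SPARC was higher in MHCC97L-Src than in MHCC97L-Oxa. TNC, tenascin-C, had 230, 146 and 276 counts in MHCC97L-Src against 567, 621 and 493 in MHCC97L-Oxa (log2 fold change -1.27, standard error 0.20, edgeR adjusted p = 0.0062). THBS1, thrombospondin 1, an inhibitor of vessel growth and activator of TGF-beta, had 224, 154 and 278 against 557, 606 and 440 counts (log2 fold change -1.19, standard error 0.20, edgeR adjusted p = 0.0088). SPARC had 18076, 14727 and 18478 counts in MHCC97L-Src against 14519, 13483 and 13463 in MHCC97L-Oxa. Its log2 fold change was 0.41 (standard error 0.10, edgeR adjusted p = 0.045), and it passed the threshold in 4 of the 11 other tests and normalizations, the adjusted p reaching 0.70 when all 9 libraries shared one fit.

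The remaining collagens showed smaller or less stable differences. COL18A1, the source of endostatin, had 78, 75 and 94 counts in MHCC97L-Src against 167, 215 and 214 in MHCC97L-Oxa (log2 fold change -1.17, standard error 0.21, edgeR adjusted p = 0.011). COL4A1 was lower by -0.75 (standard error 0.17, edgeR adjusted p = 0.031) and COL5A2 by -0.71 (standard error 0.17, edgeR adjusted p = 0.047) on the log2 scale. COL9A3, a chain of the fibril-associated type IX collagen of cartilage, was higher in MHCC97L-Src at 498, 496 and 659 counts against 347, 385 and 358 (log2 fold change 0.70, standard error 0.15, edgeR adjusted p = 0.030), although COL9A1 had no count and COL9A2 at most 17 in either line. COL23A1, a transmembrane collagen, was near the detection limit at 29, 28 and 28 counts against 4, 8 and 12 (log2 fold change 1.91, standard error 0.43, edgeR adjusted p = 0.034). It passed the filter on low counts through the MHCC97L-Src libraries, where it was high, so its call lends no support, and it was not tested when 10 counts were asked of every library. Of the 11 other tests and normalizations, COL4A1, COL9A3 and FBN2 each passed the threshold in 6 and COL5A2 in 7, while COL23A1 passed in 6 of 10. COL4A1, COL5A2, COL9A3, FBN2 and SPARC each lost the call when MHCC97L-Src replicate 1 was left out, and also when any 1 library of MHCC97L-Oxa was. COL18A1 lost it without MHCC97L-Src replicate 1 or MHCC97L-Oxa replicate 2 or 3 (adjusted p = 0.059 to 0.089), COL23A1 without MHCC97L-Src replicate 1 or MHCC97L-Oxa replicate 1 or 2, and THBS1 and TNC without MHCC97L-Oxa replicate 2 (adjusted p = 0.073 and 0.055).

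Of the head-to-head partners COL4A1 and COL4A2, only the former passed the test. COL4A2 had 7974, 8817 and 8501 counts in MHCC97L-Src against 11141, 11400 and 10830 in MHCC97L-Oxa, and COL4A1 had 1945, 1293 and 2445 against 3584, 3534 and 3074. Neither gene overlapped between these lines, both were lower in MHCC97L-Src, and the difference between the genes was not tested. RefSeq (GRCh38.p14) places their start sites 127 bases apart, and the 126 bases between them, chr13:110307158-110307283, are shown on the plus strand with motifs in capitals as above.
COL4A1 and COL4A2: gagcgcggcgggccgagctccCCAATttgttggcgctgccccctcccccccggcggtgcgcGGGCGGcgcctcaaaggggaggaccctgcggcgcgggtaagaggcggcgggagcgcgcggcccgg
This stretch holds 1 CCAAT box and 1 GC box. The start sites of COL4A6 and COL4A5 lie 380 bases apart and those of COL4A4 and COL4A3 lie 419 bases apart.

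**Figure D3:**
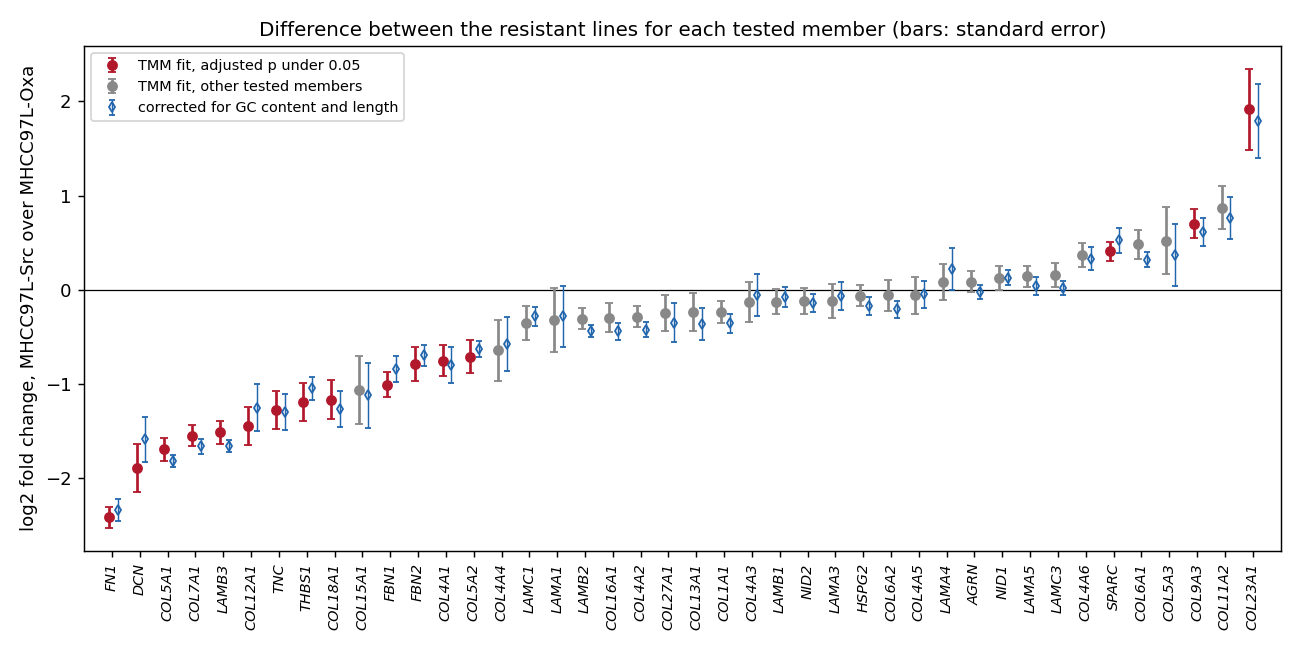
Log2 fold change of MHCC97L-Src over MHCC97L-Oxa for 42 of the 43 tested genes in ascending order, with standard errors as bars; filled circles are the TMM-normalized fit (red where the adjusted p was under 0.05) and open diamonds the fit corrected for GC content and length. FN1 lies lowest at -2.41 and COL23A1 highest at 1.91, and all 16 red genes keep their side of 0 in the corrected fit.

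GC content was checked in the same comparison, since the libraries differed in it. With each library corrected for GC content and transcript length, 21 of the 43 genes had an edgeR adjusted p under 0.05, against 10.3% of all tested genes (4.92% higher, 5.39% lower), and all 16 genes were among the 21. The 5 that joined them included COL16A1, COL4A2 and LAMB2, lower in MHCC97L-Src, and COL6A1, higher. The 13 lower genes spanned GC contents of 38.1% to 67.3%, and the tested genes 38.1% to 67.5%. The medians differed, at 49.7% for the 13 lower genes, 66.0% for the 3 higher genes and 55.2% for the 43 tested. For all tested genes the median was 50.4%. Of the 4 fibroblast and stellate cell markers high enough to test, PDGFRB was likewise lower in MHCC97L-Src than in MHCC97L-Oxa, at 194, 241 and 181 counts against 552, 581 and 545 (log2 fold change -1.32, standard error 0.19, edgeR adjusted p = 0.0039). LUM had 24, 8 and 22 against 44, 60 and 48 counts (adjusted p = 0.070), ACTA2 and THY1 had adjusted p-values of 0.15 and 0.49, and 3 of the 8 markers never exceeded 3 counts. Markers of other cell types moved in the same comparison. KRT8 and KRT18 were higher in MHCC97L-Src (log2 fold changes 0.87 and 0.91, edgeR adjusted p = 0.014 and 0.0047), and the 4 epithelial markers summed to 4688 to 6377 CPM there against 2988 to 3203 CPM. CDH5, an endothelial cadherin, had 188, 196 and 236 counts against 8, 12 and 7 (edgeR adjusted p = 1.7e-05), and like COL23A1 it passed the low-count filter through MHCC97L-Src, where it was high. PECAM1 had 15, 21 and 39 against 16, 17 and 24 counts (edgeR adjusted p = 0.56), with KDR at 0 and VWF, TEK and STAB2 at 4 counts or fewer in all libraries. CD68, a lysosomal protein of macrophages and other cells, was lower in MHCC97L-Src (log2 fold change -0.75, edgeR adjusted p = 0.012), with PTPRC, CD3E and HBB at 0. The part of these shifts in the matrix genes was not tested. In bulk RNA, fewer cells of a kind and less RNA per cell cannot be told apart.

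Against wild-type MHCC97L, few of the genes passed the test, and the comparisons of both resistant lines used the same 3 MHCC97L libraries. In MHCC97L-Src, 3 of 44 tested genes had an adjusted p under 0.05 (edgeR), where 2.13% of all tested genes did. FN1 and THBS1 were lower (0.698% of all) and COL6A2 was higher (1.43% of all). In MHCC97L-Oxa, 3 of 44 genes passed, where 0.953% of all tested genes did, and FN1, TNC and COL6A2 were all higher (0.771% of all were higher, 0.182% lower). The median log2 fold change was -0.21 for the 44 genes and -0.16 for all tested genes in MHCC97L-Src. In MHCC97L-Oxa these medians were 0.13 and -0.19. Libraries did not overlap for 28 of 44 genes in MHCC97L-Src (29.8% of all tested genes), 15 of them higher (17.5% of all) and 13 lower (12.2% of all). In MHCC97L-Oxa they did not overlap for 20 of 44 (28.1% of all), 16 of them higher (18.2% of all) and 4 lower (9.93% of all). By the rule without adjustment, 15 of 44 differed in MHCC97L-Src (24.6% of all) and 7 of 44 in MHCC97L-Oxa (16.2% of all). Among the cell type markers, CDH5 was higher in MHCC97L-Src (log2 fold change 3.30, edgeR adjusted p = 0.014). SERPINA1, a hepatocyte marker, was higher in MHCC97L-Oxa (4.14, edgeR adjusted p = 0.032), but passed the low-count filter through MHCC97L-Oxa only. No other tested marker passed against MHCC97L, and the part of these shifts in the matrix genes was not tested.

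FN1 moved in opposite directions. It fell 2.28-fold in MHCC97L-Src (log2 fold change -1.19, standard error 0.22, edgeR adjusted p = 0.036) and rose 2.33-fold in MHCC97L-Oxa (log2 fold change 1.22, standard error 0.21, edgeR adjusted p = 0.043). With a replicate block, FN1 lost the call in MHCC97L-Oxa (log2 fold change 1.23, edgeR adjusted p = 0.10). THBS1 had 1784, 881 and 791 counts in MHCC97L and fell 4.86-fold in MHCC97L-Src (log2 fold change -2.28, standard error 0.38, edgeR adjusted p = 0.023). The log2 fold change was -1.57 after correction for GC content and length and -1.85 without MHCC97L replicate 1. In MHCC97L-Oxa its log2 fold change was -1.09 (standard error 0.33, edgeR adjusted p = 0.17), with no overlap of the counts.

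TNC and COL6A2 were both low in MHCC97L. TNC had 104, 137 and 102 counts there and rose 4.87-fold in MHCC97L-Oxa (log2 fold change 2.28, standard error 0.32, edgeR adjusted p = 0.027), while in MHCC97L-Src its log2 fold change was 1.01 (standard error 0.41, edgeR adjusted p = 0.15). COL6A2, an alpha chain of the beaded filament type VI collagen, had 804, 980 and 740 counts in MHCC97L-Src, 941, 974 and 943 in MHCC97L-Oxa and 183, 303 and 287 in MHCC97L. Its log2 fold change was 1.82 (standard error 0.36, edgeR adjusted p = 0.042) in MHCC97L-Src and 1.87 (standard error 0.31, edgeR adjusted p = 0.039) in MHCC97L-Oxa, and the resistant lines overlapped each other. COL6A1, COL6A2 and COL18A1 lie on chromosome 21 within the span from 45405137 to 46132849 (GRCh38). COL6A1 had 1111 to 1400 counts in MHCC97L-Src, 899 to 995 in MHCC97L-Oxa and 483 to 671 in MHCC97L, whereas COL18A1 had 75 to 94, 167 to 215 and 160 to 292 counts, so the neighbors did not share an order of the lines.

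With 1 library fewer, most of these calls were lost while the fold changes stayed. Each of the 3 calls in MHCC97L-Src and of the 3 in MHCC97L-Oxa was kept without MHCC97L replicate 1 or replicate 2, and was lost without MHCC97L replicate 3 or any library of the resistant line, where the adjusted p ran from 0.061 to 0.19 for the saracatinib-resistant line and from 0.14 to 0.32 for the oxaliplatin-resistant line. In those fits few of all tested genes passed, 22 to 69 in MHCC97L-Src and 2 in each fit of MHCC97L-Oxa. Over all fits with a library left out, the log2 fold changes in MHCC97L-Oxa ranged from 1.15 to 1.47 for FN1, from 2.21 to 2.56 for TNC and from 1.74 to 2.13 for COL6A2. In MHCC97L-Src they ranged from -1.26 to -0.99 for FN1, from -2.48 to -1.85 for THBS1 and from 1.63 to 2.05 for COL6A2. The genes COL5A1, COL7A1 and LAMB3, which differed between the resistant lines, stood between them in MHCC97L. Their log2 fold changes were -1.19 (adjusted p = 0.059), -0.97 (adjusted p = 0.058) and -0.88 (adjusted p = 0.10) in MHCC97L-Src and 0.49 (adjusted p = 0.24), 0.57 (adjusted p = 0.18) and 0.63 (adjusted p = 0.20) in MHCC97L-Oxa, all from edgeR, with no overlap of the counts in either comparison. DCN, COL12A1 and FBN1 had log2 fold changes of -1.94, -2.10 and -0.96 in MHCC97L-Src and of -0.04, -0.67 and 0.04 in MHCC97L-Oxa, none with an adjusted p under 0.05. After the GC and length correction the values were -0.69, -1.28 and -0.19 for MHCC97L-Src. For MHCC97L-Oxa they became 0.91, -0.04 and 0.64, so that DCN changed sign, again without a call.

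**Figure D4:**
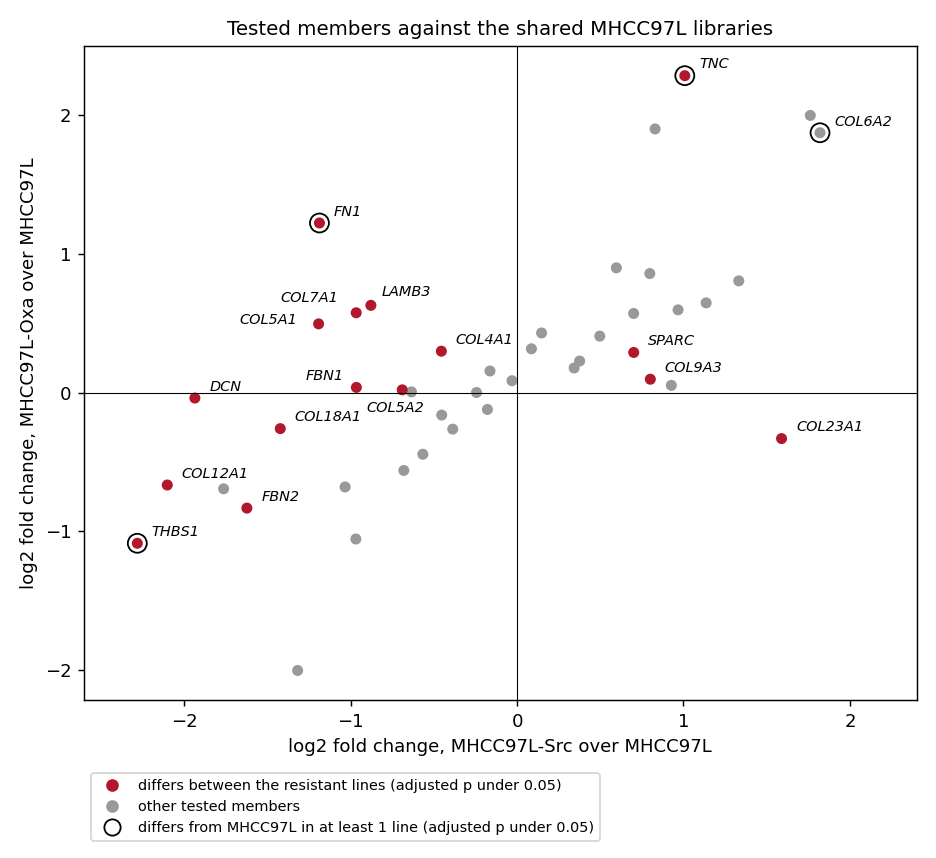
Log2 fold changes of the tested genes in MHCC97L-Src (x axis) and MHCC97L-Oxa (y axis), each over the same 3 MHCC97L libraries; red points differed between the resistant lines and rings mark genes that differed from MHCC97L in at least 1 line. FN1 lies at -1.19 and 1.22, COL6A2 at 1.82 and 1.87, and because the axes share libraries the slope of the cloud is no result.

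The GC shift of MHCC97L replicate 1 was present in these genes too. Of the 13 tested genes with a GC content under 50%, 12 were highest in replicate 1 of MHCC97L (83.0% of all tested genes of this class), with a median log2 ratio of 1.33 over the mean of replicates 2 and 3. Of the 19 with a GC content over 60%, 2 were highest in replicate 1 (3.73% of all), with a median log2 ratio of -0.61. The 12 in between had 4 highest in replicate 1 (14.9% of all) and a median log2 ratio of 0.04, against -0.54 for all tested genes of this class. LAMB1, at 3866 counts in replicate 1 and 822 and 1354 in the others, and LAMC1, at 8864 against 2794 and 2704, were among the most shifted of the first class. After correction for GC content and transcript length, 15 of 44 genes passed in MHCC97L-Src (11.5% of all tested genes), 6 higher (6.13%) and 9 lower (5.36%), and 14 of 44 in MHCC97L-Oxa (13.6%), 12 higher (6.86%) and 2 lower (6.7%), and the genes called without it were among them in both lines. The 14 held COL15A1, at 33, 31 and 30 counts in MHCC97L-Oxa against 11, 11 and 3 in MHCC97L. They also held COL9A2, at 5, 10 and 9 against 15, 32 and 49 counts. Each passed the low-count filter through the line where it was high, so these calls lend no support. In MHCC97L-Src the added lower genes included COL5A1, COL7A1, LAMB3 and COL18A1, and in MHCC97L-Oxa the added higher genes included LAMB2 and LAMB3. COL6A1, COL13A1, COL4A5, COL4A6 and NID1 were higher, and NID2 lower, in both lines after correction. With a replicate block added to the correction, COL6A2 was the 1 gene called higher in MHCC97L-Src (1.38% of all). The higher genes just named therefore lost their call in that line.

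**Figure D5:**
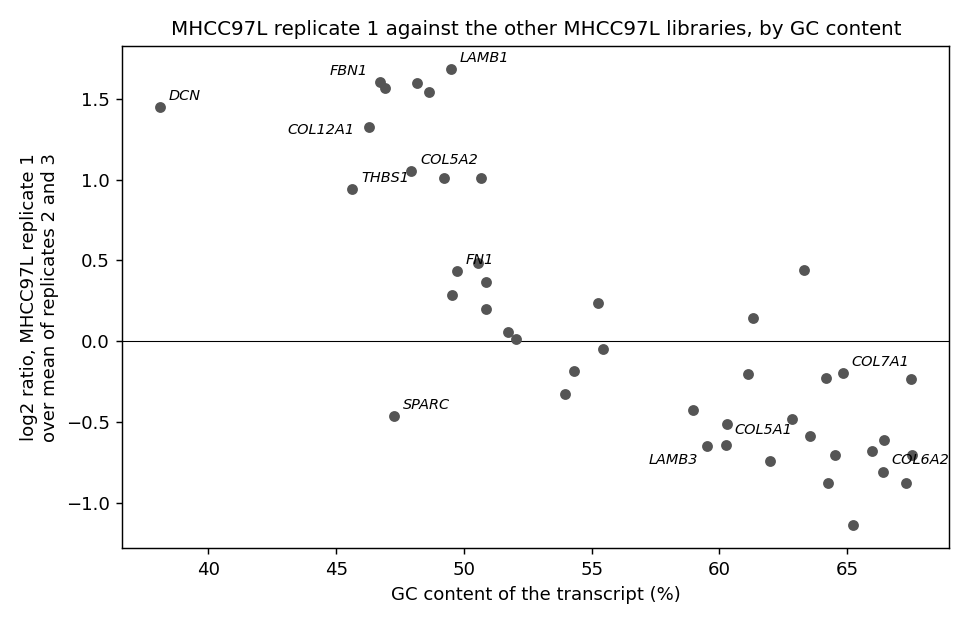
Log2 ratio of MHCC97L replicate 1 over the mean of replicates 2 and 3 (y axis, from CPM) against the GC content of the transcript in percent (x axis), for the 44 genes tested against MHCC97L. Genes under 50% GC lie mostly above 0 (median 1.33) and genes over 60% mostly below (median -0.61), with SPARC as the low-GC gene below 0.

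Genes that process the matrix or bind to it were looked at in the same way, from lists of genes grouped by function. Of 21 tested receptor genes, 7 were lower in MHCC97L-Src than in MHCC97L-Oxa (2.52% of all tested genes) and 0 were higher (2.12%). They were all integrin subunits: ITGA5, the fibronectin receptor chain, had 12902, 13678 and 11817 counts against 23474, 24072 and 23948 (log2 fold change -0.78, standard error 0.12, edgeR adjusted p = 0.0057), and ITGB4, which binds the laminin of LAMB3, had 1605, 1652 and 1424 against 3101, 3146 and 3057 (log2 fold change -0.87, standard error 0.13, edgeR adjusted p = 0.0042). The others were ITGA1, ITGA2, ITGA3, ITGAV and ITGB1, with log2 fold changes from -0.55 to -1.32, of which ITGA1 and ITGA2 had an adjusted p of 0.057 and 0.094 after correction for GC content and length. Against MHCC97L, 0 of 21 and 0 of 20 receptors passed edgeR's test. At an unadjusted p under 0.05, 4 were higher and 5 lower in MHCC97L-Src (29.5% of all tested genes in either direction), and 7 higher and 2 lower in MHCC97L-Oxa (22.4%), and DESeq2 called 2 higher and 4 lower in the former (6.01% and 11.6% of all) and 4 higher in the latter (4.73%). After correction for GC content and length, 3 were higher and 1 lower in MHCC97L-Src (6.13% and 5.36% of all), and 7 higher in MHCC97L-Oxa (6.86%). Between the resistant lines, 2 receptors were higher and 9 lower at an unadjusted p under 0.05 (19.5% of all in either direction), 1 higher and 8 lower by DESeq2 (3.27% and 3.73% of all), and 1 higher and 7 lower after the correction (4.92% and 5.39%).

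Of 27 tested genes of collagen processing and crosslinking, 6 were lower (2.52% of all tested genes) and 1 was higher (2.12%) in MHCC97L-Src than in MHCC97L-Oxa. LOXL2, a lysyl oxidase that crosslinks collagen, had 5190, 5520 and 4785 counts against 9700, 10219 and 10282 (log2 fold change -0.85, standard error 0.12, edgeR adjusted p = 0.0042), and P4HA2, a collagen prolyl hydroxylase chain, had 1893, 2036 and 1908 against 4348, 4202 and 4484 (log2 fold change -1.05, standard error 0.12, edgeR adjusted p = 9.3e-04). P4HA1, PLOD2, PCOLCE2 and LOX were the others, and P4HA1, PLOD2 and LOX had adjusted p-values of 0.13, 0.082 and 0.15 after correction for GC content and length. PCOLCE, an enhancer of procollagen cleavage, was higher in MHCC97L-Src (log2 fold change 0.78, standard error 0.13, edgeR adjusted p = 0.0091). Against MHCC97L, PCOLCE and TGM2, a transglutaminase, rose in MHCC97L-Src, and P4HA3 and TGM2 rose in MHCC97L-Oxa, of 26 and 27 genes tested (1.43% and 0.771% of all tested genes were higher). DESeq2 called 8 higher and 1 lower in MHCC97L-Src (6.01% and 11.6% of all) and 8 higher in MHCC97L-Oxa (4.73%). After the GC and length correction, edgeR called 8 higher and 1 lower in the former (6.13% and 5.36%) and 12 higher in the latter (6.86%). TGM2 had 6096, 6057 and 6260 counts in MHCC97L-Src, 5537, 5360 and 5545 in MHCC97L-Oxa and 1118, 1816 and 1620 in MHCC97L.

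Of 28 further matrix genes tested, 6 were lower (2.52% of all tested genes) and 0 higher (2.12%) in MHCC97L-Src than in MHCC97L-Oxa by edgeR. At an unadjusted p under 0.05, 13 were lower and 1 higher (19.5% of all in either direction). DESeq2 called 10 lower and 0 higher (3.73% and 3.27% of all). After correction for GC content and length, 10 were lower (5.39% of all). TGFBI, an integrin-binding matrix protein induced by TGF-beta, had 9207, 7058 and 10308 counts against 23144, 20392 and 19962 (log2 fold change -1.16, standard error 0.12, edgeR adjusted p = 5.6e-04). MFAP2, MFAP4 and LTBP2, whose products associate with fibrillin microfibrils, FBLN2 and NTN4 were the other 5, with log2 fold changes from -0.52 to -1.75. Against MHCC97L, SMOC1 and LTBP3 rose in both lines, and MFAP5 was called lower in MHCC97L-Src at 11, 6 and 17 counts against 177, 77 and 89, passing the low-count filter through MHCC97L only. With FBN3, which had 23, 26 and 24 counts in MHCC97L-Src against 3, 6 and 5 in MHCC97L and passed the low-count filter through the former only, 3 were called higher and 1 lower of 28 (1.43% and 0.698% of all), and 2 higher of 28 in MHCC97L-Oxa (0.771%). After the correction 5 were higher and 4 lower in MHCC97L-Src (6.13% and 5.36% of all), and 9 higher and 1 lower in MHCC97L-Oxa (6.86% and 6.7%). SMOC1, a SPARC-related basement membrane protein, had 11715, 11492 and 12622 counts in MHCC97L-Src, 10061, 11101 and 10648 in MHCC97L-Oxa and 2056, 3009 and 2766 in MHCC97L.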

How the data were processed

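RNA was poly(A) selected and made into stranded paired-end libraries. Per the submitters' processing notes, Trimmomatic 0.36, HISAT2 2.2.1.0 and GRCh38.p12 were used; the counting program and annotation are not given in the sources used here. The authors deposited raw read counts per gene, without normalization, and FPKM values for the same genes; an FPKM of 0 stood beside a count above 0 for 245 to 297 genes per library. The 71 genes and all lists were chosen with earlier results of these data known.

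Each pair of lines was compared on its 6 libraries by the quasi-likelihood test of edgeR 4.0.16 (R 4.3.3) after filterByExpr (minimum count 10), TMM normalization and Benjamini-Hochberg adjustment over all genes tested (12037, 12064 and 11994), at an adjusted p of 0.05. For differences between means, the methods of the study state a Student test. Standard errors are log2 fold changes divided by the square root of the F statistic. Fold changes are named for genes that passed in at least 1 comparison, levels for the 15 highest by FPKM and for genes that complete a protein or gene pair with one of these, and the rest are counted. GC content and length came from GENCODE release 29 transcripts (19343 genes matched, all 71 included); the correction used splines with 5 degrees of freedom as edgeR offsets. Alternatives were DESeq2 1.42.0, limma 3.58.1 on log2(FPKM + 1) and log2(FPKM + 0.1), other scalings and filters, a replicate block, a joint fit of all 9 libraries, the GC correction, an unadjusted rule and leaving out each library. The test was run on simulated data with the same dispersion for all genes and both lines of a comparison and no GC shift. That check therefore does not cover a library that stands apart, as MHCC97L replicate 1 does. Some genes are not reported here. Promoters came from RefSeq and were matched for 54 of the 71 genes; replicates of a line differed by more than sampling noise.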

Additional observations from a re-analysis of the deposited data

Results flagged for a closer look

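The direct test between the resistant lines singled out 16 genes, that is, their change from MHCC97L differed between the lines by the test of the difference itself (edgeR's quasi-likelihood test, Benjamini-Hochberg adjustment). The log2 fold changes of MHCC97L-Src over MHCC97L-Oxa were -2.41 for FN1, -1.89 for DCN, -1.69 for COL5A1, -1.55 for COL7A1, -1.51 for LAMB3, -1.44 for COL12A1, -1.27 for TNC, -1.19 for THBS1, -1.17 for COL18A1, -1.005 for FBN1, -0.79 for FBN2, -0.75 for COL4A1 and -0.71 for COL5A2. They were 1.91 for COL23A1, 0.70 for COL9A3 and 0.41 for SPARC. COL23A1 passed the low-count filter through the MHCC97L-Src libraries, where it was high, so its call lends no support. Of the 16 genes, FN1 had an adjusted p under 0.05 against MHCC97L in both lines, with opposite signs. With a replicate block, its edgeR adjusted p in MHCC97L-Oxa was 0.10. What lies behind these differences was not tested.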

How the results depend on the processing

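The 22 calls kept their direction in all 241 fits with another test, scaling, filter or unit and in all 132 fits without a library, and lost the threshold in 41 and 52 of them. DESeq2's Wald test called 9 genes higher and 9 lower in MHCC97L-Src against MHCC97L (in place of 1 and 2) and 7 higher in MHCC97L-Oxa (in place of 3), where it called 6.01%, 11.6% and 4.73% of all tested genes. With at least 10 counts in every library, 0 were higher in MHCC97L-Src (1.0% of all tested genes), since COL6A2 reached an adjusted p of 0.051. DESeq2's size factors left 1 lower there (0.939% of all), FN1 reaching 0.054. Total counts gave 4 lower in MHCC97L-Src and 5 higher in MHCC97L-Oxa (0.714% and 1.44% of all), and 1 higher between the resistant lines (in place of 3; 2.0%). No filter gave 5 lower in MHCC97L-Src (2.86% of all). With all 9 libraries in one fit, 9 were higher and 11 lower in MHCC97L-Src and 5 higher in MHCC97L-Oxa (6.98%, 9.01% and 3.16% of all). Between the resistant lines, 4 stayed lower in that fit (FN1, COL5A1, COL7A1 and LAMB3, in place of 13) and 0 higher (0.482% and 0.221% of all). By construction this fit gives the resistant lines the spread of MHCC97L too. The GC and length correction gave 6 higher and 9 lower in MHCC97L-Src and 12 higher and 2 lower in MHCC97L-Oxa, and moved the median of all genes by 0.11 and 0.12 on the log2 scale. On log2(FPKM + 1), 6 were higher in MHCC97L-Oxa and 0 higher between the resistant lines (1.87% and 1.58% of all). THBS1 in MHCC97L-Src had a limma adjusted p of 0.062 on that scale. On log2(FPKM + 0.1), 4 were lower in MHCC97L-Src, 5 higher in MHCC97L-Oxa and 1 higher between the resistant lines (0.831%, 1.82% and 1.49%). The unadjusted rule (p under 0.05 with a change of over 1 on the log2 scale) gave 6 higher and 9 lower in MHCC97L-Src, 5 higher and 2 lower in MHCC97L-Oxa, and 1 higher between the resistant lines. In either direction it took 24.6%, 16.2% and 4.01% of all tested genes in these comparisons. The 1 higher gene was COL23A1, which passed the low-count filter through MHCC97L-Src. Where no construction is named, the cause was not tested.

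With each library left out, the numbers ranged in MHCC97L-Src from 0 to 6 higher and from 0 to 11 lower, in MHCC97L-Oxa from 0 to 18 higher and from 0 to 3 lower, and between the resistant lines from 0 to 5 higher and from 7 to 15 lower. The 18 came without MHCC97L replicate 1 (11.9% of all tested genes) and the 11 without MHCC97L replicate 2 (22.2% of all). The 6 also came without MHCC97L replicate 2 (5.62%), and the 3 without MHCC97L replicate 1 or 2 (6.6% and 16.9%). The 7 came without MHCC97L-Oxa replicate 2 (0.824%) and the 5 without MHCC97L-Src replicate 2 (3.68%). The 15 came without MHCC97L-Src replicate 2 or 3 (4.83% and 6.79%). Where 0 were higher, the share of all was 0.0901% to 0.367% in MHCC97L-Src, at most 0.0164% in MHCC97L-Oxa and 0.552% to 0.716% between the resistant lines. Counts per annotated length kept 13 of the 15 genes with the highest FPKM.

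The labels do not say whether libraries of the same replicate number were handled together. Their deviations from the line means correlated at 0.160, 0.211 and -0.631 for MHCC97L-Src with MHCC97L. The values were -0.208, -0.129 and 0.417 for MHCC97L-Oxa with MHCC97L, and 0.0286, -0.0750 and -0.271 between the resistant lines. Signs were mixed, and so few correlations cannot settle whether the libraries were paired. With the replicate block, 6 were lower in MHCC97L-Src and 1 higher between the resistant lines (5.66% and 1.3% of all), and together with the GC correction 4 were lower in MHCC97L-Src, 9 higher and 1 lower in MHCC97L-Oxa, and 0 higher between the resistant lines (0.988%, 3.79%, 2.51% and 1.61% of all). FN1 had an edgeR adjusted p of 0.10 in MHCC97L-Oxa under the block alone, and of 0.054 in MHCC97L-Src under the block with the GC correction.

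At 16970486 to 18209213 counts per library, the 16 genes at or under 3 counts everywhere could not be compared, and 11 more were too low for most tests. With 3 libraries per line, an exact permutation test of a single gene cannot go below 0.10.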
